A study of Mus musculus with 4 samples.

Results

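Mitosis genes are a list of 40 genes that drive entry into mitosis, chromosome segregation and cell division. They were followed in bone marrow cells sorted as stroma, from mice with and without a myeloproliferative neoplasm (MPN). The list was taken by gene name, with earlier results of these data known, and 39 of the 40 were measured among 19938 genes. Cyclin B1 (Ccnb1) was not analysed here. All but 1 of the 39 had a single probe set, and Top2a was read from whichever of its probe sets averaged higher.

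The tested group was 3 Nes-gfp mice on the C57BL/6 background (MPN mice 1, 2 and 3) that had received bone marrow cells with the Mx1-cre transgene and the JAK2-V617F allele, a mutant kinase found in these neoplasms. The comparison was 1 Nes-gfp mouse that had received control bone marrow cells. In all 4 mice the nestin promoter drove green fluorescent protein, and 10 weeks after transplantation the cells that carried the reporter but neither CD45 nor CD31 nor Ter119 were sorted. The mice carried transplanted blood cells, so the mutation was in the donor cells and not in the recipients' own stroma, per the design text, while the sample labels list all alleles together.

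Mitosis is started by cyclin-dependent kinase 1 with its cyclins, held at the spindle assembly checkpoint until every kinetochore is attached to microtubules, and ended by the anaphase-promoting complex and by cytokinesis. Most of these genes are transcribed in the G2 and M phases of the cell cycle and are low in resting cells, so their RNA is widely used as a sign of dividing cells. In marrow, dividing cells are mainly blood cell precursors, while most stromal cells are quiescent.

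Array medians were 5.15, 5.16 and 5.09 in MPN mice and 5.13 in the control mouse (log2). The median gene was 0.179 higher (log2) in MPN mice than in the control mouse, and 1194 olfactory and vomeronasal receptor genes, which serve as a guide to background, were 0.254 higher. Differences below are log2 values as deposited, MPN mean minus control, and are read against that shift. Nes, whose promoter drives the reporter, was at 4.56, 3.92 and 4.26 in MPN mice and 4.26 in the control mouse, under the background limit of 5.21 throughout. Lepr, a marker of perivascular stroma, was at 6.85, 5.81 and 7.17 in MPN mice and 10.80 in the control mouse. Ptprc, which encodes the CD45 protein that the sort selected against, was at 10.16, 9.46 and 10.40 in MPN mice and 7.07 in the control mouse. The arrays also differed in sex-linked RNA: Xist was at 8.37, 9.31 and 9.22 in MPN mice and 3.30 in the control mouse, while the Y-linked Kdm5d was at 4.16, 4.16 and 4.14 in MPN mice and 7.72 in the control mouse. MPN status therefore cannot be told apart from this difference.

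Most mitosis genes had higher values in MPN mice than in the control mouse, but none passed the test and the 3 MPN mice differed widely. Their median difference was 0.79, against 0.18 for all genes, and 38 of 39 had a mean difference above 0, as did 13251 of the 19938 genes. It was at least 1 in 18 of 39, against 3.47% of all genes. Of the 39, 24 (61.5%) were higher than the control on each MPN array and none was lower on each, where 46.8% of all genes were higher and 21.1% lower. At least 2-fold higher on each MPN array were 6 (15.4%), namely Cdk1, Ccnb2, Bub1, Spc25, Cenpa and Top2a, against 1.13% of all genes. Cdk1 and Cenpa were only just past that fold on their lowest MPN array, with differences of 1.00 and 1.01. With the probe sets of a gene averaged the count was 5, and Top2a alone among the 6 had several probe sets. In limma's test with Benjamini-Hochberg adjustment over all genes, 0 of 39 passed an adjusted p of 0.05, as did 0.0% of all genes in either direction, and the smallest adjusted p of a mitosis gene was 0.238 (Bub1). At an unadjusted p under 0.05, 6 of 39 were higher (Bub1, Aurkb, Spc25, Incenp, Top2a and Nusap1) and 0 lower, where 3.97% of all genes were higher and 8.63% lower. With 1 control array the fit took its spread from the MPN mice alone, and an exact permutation of the 4 arrays could not give a p below 0.25. These are bulk samples, in which more dividing cells and more RNA per cell cannot be told apart.

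**Figure D1:**
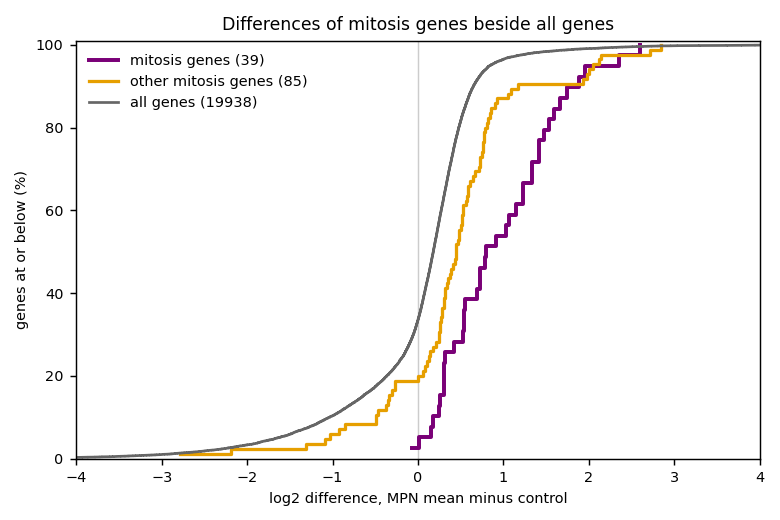
Cumulative share of genes (percent, vertical axis) at or below each log2 difference, MPN mean minus control (horizontal axis), for the 39 mitosis genes, 85 other mitosis genes and all 19938 genes. The curve of the mitosis genes lies to the right of that of all genes over most of its range, with medians of 0.79 and 0.18, and axes stop at 4 in either direction.

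The promoters were examined because these genes are known to share elements. The cell cycle genes homology region (CHR) is a short element through which the DREAM and MuvB complexes repress the genes in resting cells and switch them on in G2, and the CCAAT box is bound by the activator NF-Y. Promoter windows of 300 bases (250 before to 50 after a transcript start) were taken from RefSeq on GRCm38.p6, where 32 of the 40 genes had 35 windows. The CHR letters TTTGAA were found on either strand in 27 of the 35 windows, 77.1% (exact 95% interval 59.9% to 89.6%, counting error only), against 17.9% of all 32851 windows of the same length. CCAAT was found on either strand in 23 windows (65.7%), against 37.4% of all windows. The variant TTTAAA, which reads the same on both strands, was in 9 windows (25.7%), against 13.2% of all windows. TTTGAA began within 40 bases of the start in 25 windows (71.4%), against 4.2% of all windows, and TTTGAA and CCAAT stood together in 20 windows (57.1%), against 6.95%. No matches of different motifs shared a base. Windows of the same gene overlap for 3 genes, and the median GC content was 59.0% in these windows and 52.7% in all.

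The 200 bases before the start are shown for 7 genes: Cdk1, Ccnb2 and Top2a, which were at least 2-fold higher on each MPN array, Mki67 and Kif11, which were so on the arrays of mice 2 and 3, Bub1, which was high without the CHR letters, and Cdc20, which has them but differed little. Each is written 5′ to 3′ along the gene's own strand, and capitals mark CHR letters (TTTGAA, or TTCAAA where they lie on the other strand) and CCAAT boxes (CCAAT, or ATTGG on the other strand).
Cdk1, chr10:69352913-69353112, minus strand: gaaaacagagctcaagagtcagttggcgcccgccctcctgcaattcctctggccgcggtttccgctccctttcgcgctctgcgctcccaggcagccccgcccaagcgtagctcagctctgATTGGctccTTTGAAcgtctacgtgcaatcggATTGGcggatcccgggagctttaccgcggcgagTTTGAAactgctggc
Ccnb2, chr9:70421555-70421754, minus strand: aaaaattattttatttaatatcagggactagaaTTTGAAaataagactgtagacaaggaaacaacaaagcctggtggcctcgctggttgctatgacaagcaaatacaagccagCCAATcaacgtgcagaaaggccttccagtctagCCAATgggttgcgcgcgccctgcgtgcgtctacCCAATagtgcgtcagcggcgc
Top2a, chr11:99024190-99024389, minus strand: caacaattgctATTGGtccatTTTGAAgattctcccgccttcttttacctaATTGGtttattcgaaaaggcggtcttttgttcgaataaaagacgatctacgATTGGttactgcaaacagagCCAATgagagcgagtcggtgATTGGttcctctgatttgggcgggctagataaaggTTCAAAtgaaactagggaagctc
Mki67, chr7:135716380-135716579, minus strand: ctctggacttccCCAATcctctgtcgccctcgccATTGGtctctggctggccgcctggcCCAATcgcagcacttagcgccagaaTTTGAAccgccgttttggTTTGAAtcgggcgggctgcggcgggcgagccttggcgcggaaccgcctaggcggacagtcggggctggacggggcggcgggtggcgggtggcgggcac
Kif11, chr19:37376182-37376381, plus strand: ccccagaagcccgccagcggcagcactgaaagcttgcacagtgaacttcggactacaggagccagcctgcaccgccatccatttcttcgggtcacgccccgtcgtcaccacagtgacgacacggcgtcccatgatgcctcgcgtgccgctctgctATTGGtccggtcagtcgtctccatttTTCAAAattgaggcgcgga
Bub1, chr2:127831860-127832059, minus strand: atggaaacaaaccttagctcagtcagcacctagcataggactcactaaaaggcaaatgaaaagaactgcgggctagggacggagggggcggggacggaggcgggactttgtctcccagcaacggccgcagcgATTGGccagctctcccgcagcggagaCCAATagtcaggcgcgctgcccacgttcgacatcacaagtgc
Cdc20, chr4:118437344-118437543, minus strand: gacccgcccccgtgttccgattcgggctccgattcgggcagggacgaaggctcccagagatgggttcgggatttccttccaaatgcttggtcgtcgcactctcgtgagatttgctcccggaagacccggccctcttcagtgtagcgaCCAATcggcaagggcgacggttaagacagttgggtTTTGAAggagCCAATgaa

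Cdk1 has CHR letters that begin 71 and 15 bases before the start, and CCAAT boxes 80 and 48 bases before it, with another outside the stretch shown. Ccnb2 has 3 CCAAT boxes at 87, 54 and 21 bases before the start, with CHR letters 167 bases before it and again from base 5 of the transcript, outside the stretch shown. Top2a has CHR letters at 179 and 23 bases before the start. Bub1 has CCAAT boxes at 68 and 42 bases before the start. Cdc20 has its CHR letters 18 bases before the start, between CCAAT boxes at 53 and 8 bases.

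Genes with and without the CHR letters overlapped in their differences. The 24 measured genes with TTTGAA in a window had a median difference of 0.75 (from -0.07 to 2.60), and 5 of them were at least 2-fold higher on each MPN array. The 7 without it (Melk, Bub1, Mad2l1, Nuf2, Cenpe, Birc5 and Nusap1) had a median of 1.03 (from 0.32 to 1.96), and 1 of them was at least 2-fold higher on each MPN array. Of all genes, 1.13% were at least 2-fold higher on each MPN array. Cenpe and Birc5, though without TTTGAA, had the variant TTTAAA in their windows. A match of letters is a description of the sequence and not of binding.

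**Figure D2:**
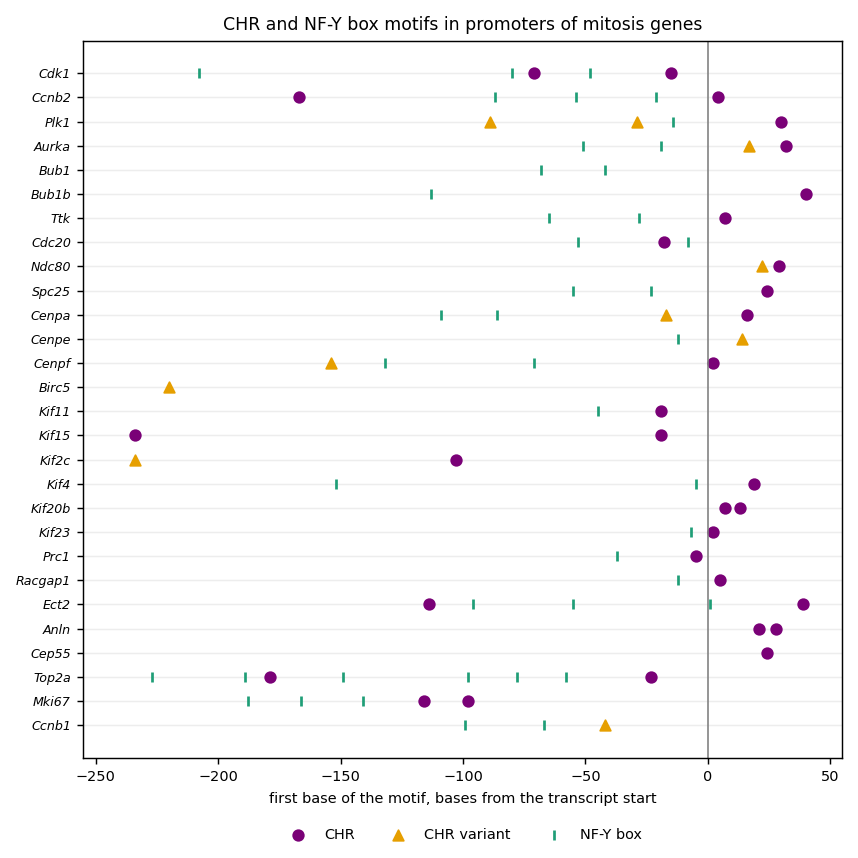
Position of the first base of each motif, in bases from the transcript start (horizontal axis, with 0 at the start base), in 1 promoter window of each gene that held any of the motifs. Circles are the CHR letters TTTGAA, triangles the variant TTTAAA and bars the CCAAT (NF-Y) box, on either strand, and most circles lie within 40 bases of the start.

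Among the regulators that start mitosis, Cdk1 and Ccnb2 stood well above the control and the other kinases and factors differed by less than 1. Cdk1, the kinase of mitotic entry, was at 6.57, 9.09 and 8.86 in MPN mice 1, 2 and 3 and 5.57 in the control mouse, higher by 2.60 (SE 1.24, 6.08-fold, adjusted p = 0.45). Ccnb2, the mitotic cyclin B2, was at 8.66, 10.76 and 9.15 in MPN mice and 7.17 in the control mouse, a difference of 2.35 (SE 0.99, 5.10-fold, adjusted p = 0.436). Both were above the control in all 3 MPN mice, and both were lowest in mouse 1 and highest in mouse 2. Ccna2, cyclin A2 of S phase and early mitosis, was at 5.42, 7.81 and 7.47 in MPN mice and 6.17 in the control mouse, so that mouse 1 lay below the control and the groups overlapped (0.73, SE 1.16). Plk1 (0.55), Aurka (0.54), Melk (0.79) and Foxm1 (0.30) were higher than the control on each MPN array, by at most 1.18 on any of them, which was Melk in mouse 2. With Cdk1 and Ccnb2, 6 of 8 measured regulators were higher on each MPN array, against 46.8% of all genes. The difference of Foxm1 was near the 0.254 of the receptor genes. Plk1 and Aurka are mitotic kinases, and Foxm1 is a transcription factor of G2 and M genes. Cdc25c, a phosphatase that activates Cdk1, was at 4.82, 4.15 and 4.17 in MPN mice and 4.37 in the control mouse, under the background limit on every array.

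Of the 5 genes of the spindle assembly checkpoint and its target, 3 were higher in every MPN mouse (Bub1, Ttk and Cdc20), against 46.8% of all genes. Only Bub1 was at least 2-fold higher in every MPN mouse, as were 1.13% of all genes. Bub1b, Mad2l1 and Ttk reached that fold in mouse 3 alone. Bub1, a checkpoint kinase at kinetochores, was at 6.78, 6.22 and 7.06 in MPN mice and 4.73 in the control mouse. Its difference of 1.96 (SE 0.41, 3.89-fold, adjusted p = 0.238) was the one with the smallest p of all 39 genes. Bub1b, which encodes the checkpoint protein BubR1, was at 5.22, 4.90 and 7.55 in MPN mice and 5.47 in the control mouse. Mad2l1, which encodes the inhibitor Mad2 of the anaphase-promoting complex, was at 5.10, 5.73 and 7.79 in MPN mice and 5.89 in the control mouse. In both genes mice 1 and 2 lay below the control and mouse 3 lay 2.08 and 1.90 above it, and without mouse 3 their differences were -0.408 and -0.476. Ttk, the checkpoint kinase Mps1, was higher on each MPN array (0.72, SE 0.38) though under the background limit in both group means, and Cdc20, the activator that the checkpoint holds back, differed by 0.26 (SE 0.35).

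Centromere and kinetochore genes had mean differences from 0.53 to 1.74, and 4 of 7 were higher in every MPN mouse, against 46.8% of all genes. Spc25, a subunit of the Ndc80 complex that binds microtubules, was at 8.15, 7.91 and 7.21 in MPN mice and 6.02 in the control mouse (1.74, SE 0.46, adjusted p = 0.313). Cenpa, the histone variant that marks centromeres, was at 7.97, 6.97 and 6.97 in MPN mice and 5.96 in the control mouse (1.34, SE 0.53). Both were highest in mouse 1, unlike Cdk1 and most of the list. The partners of Spc25 in its complex behaved otherwise. Ndc80 was at 6.39, 6.22 and 8.28 in MPN mice and 5.89 in the control mouse (1.07, SE 1.02). Nuf2 was at 4.67, 6.84 and 8.77 in MPN mice and 5.85 in the control mouse (0.91, SE 1.82), the widest range between MPN mice of the 39 genes at 4.10. Spc24 was below the control in mouse 1 only (0.53, SE 0.70). Of the 4 subunits, then, Spc25 and Ndc80 did not overlap with the control and Nuf2 and Spc24 did. Cenpe, a kinetochore kinesin, was at 6.53, 7.65 and 7.74 in MPN mice and 6.28 in the control mouse (1.03, SE 0.61). Cenpf, a large kinetochore protein of G2 and M, was at 5.50, 7.13 and 7.47 in MPN mice and 6.16 in the control mouse (0.54, SE 0.94), with mouse 1 below the control.

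The chromosomal passenger complex corrects faulty attachments and guides cytokinesis. All 3 of its genes on the list were higher in every MPN mouse, against 46.8% of all genes. Aurkb, the kinase of the complex, was at 6.57, 7.08 and 6.86 in MPN mice and 5.61 in the control mouse, a difference of 1.23 (SE 0.27, 2.34-fold, adjusted p = 0.256). Incenp, its scaffold, was at 7.23, 7.78 and 8.02 in MPN mice and 6.25 in the control mouse (1.42, SE 0.39, adjusted p = 0.327). In both genes the MPN mice lay close together, and mouse 1 was just short of 2-fold above the control, by 0.96 and 0.98. Birc5, which encodes survivin, was at 7.81, 10.36 and 7.78 in MPN mice and 6.99 in the control mouse (1.66, SE 1.32), so that mouse 2 stood apart. Borealin (Cdca8), the remaining member of the complex, belonged to the wider list described below and was at 6.08, 5.68 and 7.61 in MPN mice and 5.60 in the control mouse (0.85, SE 0.92), close to the control in mouse 2.

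Of the spindle motors and microtubule proteins, 4 of 6 were higher in every MPN mouse, against 46.8% of all genes. The mean differences of these 4 ran from 1.23 to 1.47. Kif11, the kinesin that pushes spindle poles apart, was at 7.10, 8.73 and 8.57 in MPN mice and 6.66 in the control mouse (1.47, SE 0.81). Nusap1, which bundles microtubules, was at 6.95, 6.41 and 7.41 in MPN mice and 5.50 in the control mouse (1.42, SE 0.47, adjusted p = 0.392). Kif11 was lowest in mouse 1 and Nusap1 in mouse 2. Tpx2, the activator of Aurora A on the spindle, was at 6.86, 8.33 and 6.73 in MPN mice and 5.98 in the control mouse (1.33, SE 0.80). Kif15, a kinesin that works beside Kif11, was at 5.67, 6.44 and 7.79 in MPN mice and 5.40 in the control mouse (1.23, SE 0.96). Mouse 2 stood highest in Tpx2 and mouse 3 in Kif15. Kif4, a chromosome-bound kinesin, overlapped with the control (0.69, SE 0.62). Kif4 lies on the X chromosome, and Xist, also X-linked, differed between the groups as given above. Kif2c, a kinesin that takes microtubules apart, differed by 0.15 (SE 0.37) and was under the background limit in both group means.

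Genes of the central spindle and of cytokinesis differed least as a group, with a median of 0.30 over 8 genes. Only Racgap1 and Kif20a were higher in every MPN mouse, where 46.8% of all genes were. Kif20a and Cep55 were under the background limit in both group means. Kif23, the central spindle kinesin, was at 5.63, 8.82 and 9.24 in MPN mice and 6.31 in the control mouse (1.59, SE 1.76). Mice 2 and 3 lay 2.51 and 2.93 above the control and mouse 1 lay below it. Anln, the scaffold anillin of the contractile ring, was at 7.02, 4.70 and 6.32 in MPN mice and 4.87 in the control mouse (1.15, SE 1.07), with mouse 2 below the control. Cep55, which recruits the abscission machinery, was at 4.47, 4.42 and 6.51 in MPN mice and 5.20 in the control mouse, a difference of -0.07 (SE 1.06). Cep55 was again high in mouse 3 alone, and without mouse 1 or mouse 2 its difference was 0.263 and 0.288. Racgap1, the partner of Kif23, was at 5.24, 5.35 and 6.95 in MPN mice and 5.07 in the control mouse (0.78, SE 0.86), also highest in mouse 3. The others, Kif20a (0.30), Prc1 (0.30), Ect2 (0.25) and Kif20b (0.17), stayed under 2-fold on every array.

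Top2a and Mki67, proteins of mitotic chromosomes that are widely used as proliferation markers, were higher in every MPN mouse, as were 46.8% of all genes. Top2a, topoisomerase II alpha, was at 8.73, 9.86 and 9.95 in MPN mice and 7.63 in the control mouse, a difference of 1.88 (SE 0.62, 3.69-fold, adjusted p = 0.391). Mki67, the Ki-67 antigen, was at 7.25, 8.54 and 9.48 in MPN mice and 6.89 in the control mouse, a difference of 1.53 (SE 1.00, 2.89-fold, adjusted p = 0.512). Mouse 1 was the lowest MPN mouse for both.

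**Figure D3:**
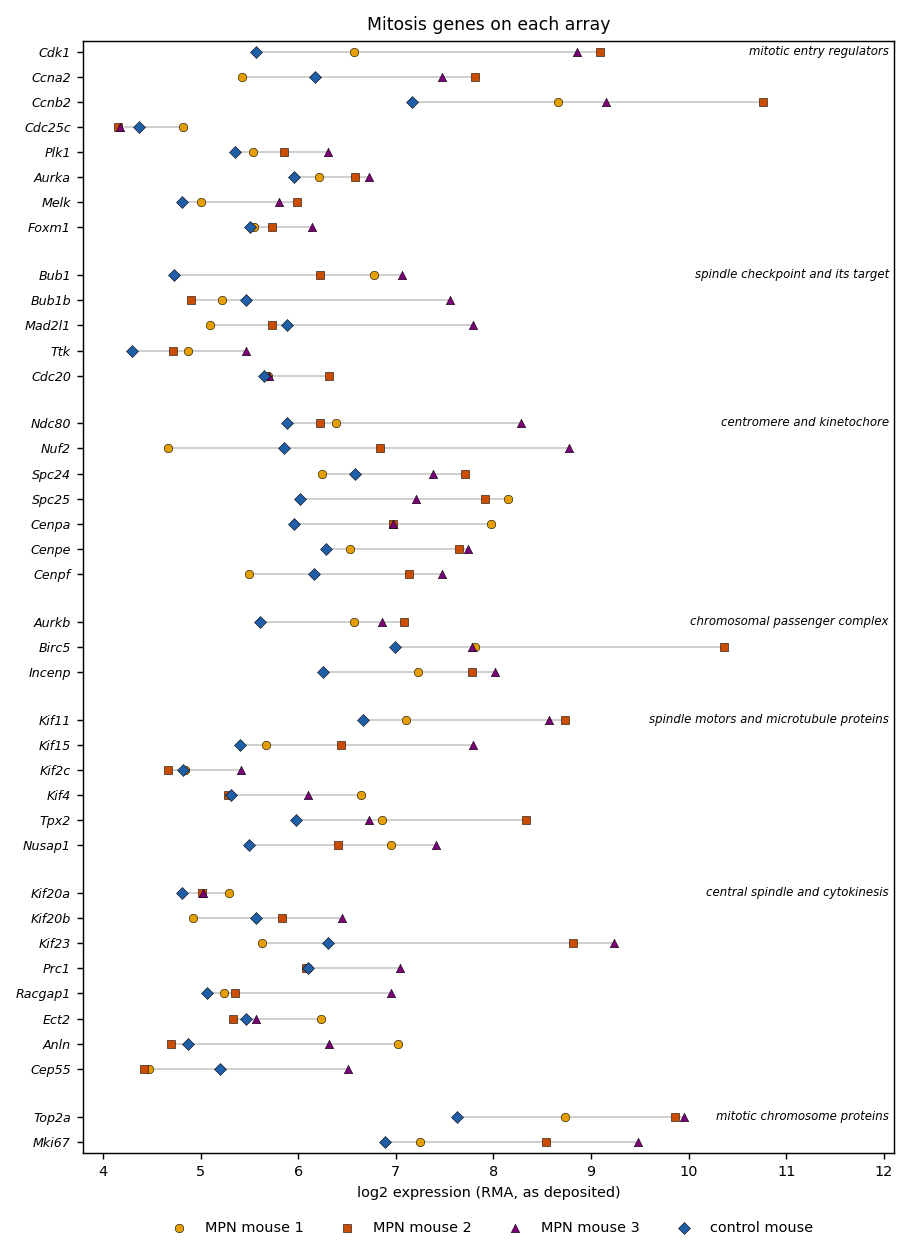
Deposited log2 expression (horizontal axis) of the 39 measured mitosis genes on each array, with genes grouped by role and each gene's values joined by a grey line. Circles, squares and triangles are MPN mice 1, 2 and 3 and diamonds the control mouse, which lies below all 3 MPN mice for 24 genes. Values are compared within a gene only, since each gene has its own probes.

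The MPN mice differed from each other more in these genes than in most others. The SD over the MPN arrays was 1 or more in 14 of 39 mitosis genes, against 7.43% of all genes. Its median was 0.68, against 0.23 for all genes and 0.17 (megakaryocyte markers) to 0.57 (other mitosis genes) in the lists described below. Above the background limit in either group were 34 of the 39 genes but 11966 of all 19938, and genes of like level were not compared. The median difference from the control was 0.36 in mouse 1, 0.97 in mouse 2 and 1.29 in mouse 3, where that of all genes was 0.20, 0.21 and 0.08. At least 2-fold above the control were 9 of 39 genes in mouse 1 (23.1%), 18 in mouse 2 (46.2%) and 24 in mouse 3 (61.5%), against 5.5%, 5.93% and 5.06% of all genes. Mouse 3 had the highest MPN value for 22 of the 39 genes, though for only 20.6% of all genes, and mouse 1 had the lowest for 22, against 24.2% of all genes. Nuf2, which was lower by 1.18 in mouse 1, was the only one of the 39 at least 2-fold below the control on any array, where 12.2%, 12.2% and 8.5% of all genes were in mice 1, 2 and 3.

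The genes fell into sets by the mice in which they were at least 2-fold above the control. Beside the 6 that were so in all mice, 8 were so in mice 2 and 3 but not mouse 1 (Ccna2, Cenpe, Aurkb, Incenp, Kif11, Kif15, Kif23 and Mki67), 20.5% against 0.767% of all genes. Another 8 were so in mouse 3 alone (Bub1b, Mad2l1, Ttk, Ndc80, Nuf2, Cenpf, Racgap1 and Cep55), against 2.42% of all genes, and 4 in mouse 2 alone (Melk, Spc24, Birc5 and Tpx2), against 3.27%. Nusap1 and Anln were so in mice 1 and 3, Kif4 in mouse 1 alone, and the remaining 10 in none, where 88.0% of all genes were in none. Members just outside the 2-fold bound included Nuf2 in mouse 2 (0.99), Incenp in mouse 1 (0.98) and Aurkb in mouse 1 (0.96). The sets describe these 3 mice, and membership was not tested.

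**Figure D4:**
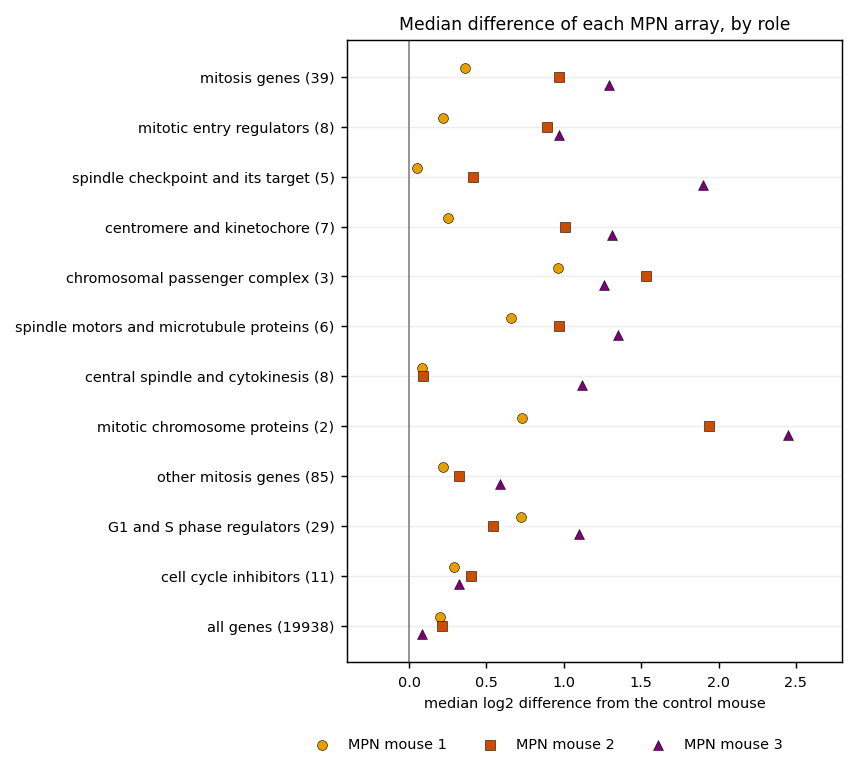
Median log2 difference from the control mouse (horizontal axis) of each role group, with the number of measured genes in brackets, for MPN mice 1 (circles), 2 (squares) and 3 (triangles). The medians of all mitosis genes were 0.36, 0.97 and 1.29, and in the spindle checkpoint and cytokinesis groups mouse 3 stood apart from the other mice.

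A wider list of 85 measured mitosis genes not on the list above (88 were listed, chosen for their known roles) had a smaller median difference. Its median difference was 0.44, and 44 of 85 were higher than the control in every MPN mouse and 9 lower, where 46.8% of all genes were higher and 21.1% lower, so that the share higher was near that of all genes. At least 2-fold, 4 were higher and 1 lower in every MPN mouse, against 1.13% and 5.78% of all genes. With limma, 0 of 85 passed in either direction, while 8 were higher and 3 lower at an unadjusted p under 0.05, against 3.97% and 8.63% of all genes. The 5 with the largest higher differences were Cenpk, a kinetochore protein (2.84, SE 0.68), Cks2, a subunit of Cdk1 (2.72, SE 0.36), Cenph (2.14, SE 1.47), Ncapg of condensin (2.12, SE 1.14) and Arhgap11a (2.05, SE 0.46). Cks2, at 10.02, 9.34 and 9.91 in MPN mice and 7.04 in the control mouse, had an adjusted p of 0.141. The 3 with the largest lower differences were Cdc16 (-2.78, SE 0.22) and Cdc23 (-2.19, SE 1.01), both subunits of the anaphase-promoting complex, and Ska2 (-1.31, SE 0.40). Cdc16 was at 4.37, 4.40 and 4.72 in MPN mice and 7.27 in the control mouse, with an adjusted p of 0.0873. As in the main list, mouse 3 had the highest median difference, 0.59, against 0.22 in mouse 1 and 0.32 in mouse 2.

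On the same arrays, granulocyte precursor and pan-leukocyte markers were higher and stroma markers lower than in the control mouse. All 15 granulocyte precursor markers, genes of early and of later stages of the neutrophil lineage, were higher in every MPN mouse, against 46.8% of all genes. Which of these stages the values came from was not tested. Their median differences were 2.69, 3.20 and 3.63 in mice 1, 2 and 3. Their summed level was between 14.18 and 14.86 (log2 of the sum of linear values) in MPN mice and 11.65 in the control mouse. Elane, neutrophil elastase, was at 9.27, 9.29 and 9.58 in MPN mice and 6.90 in the control mouse. Mpo, myeloperoxidase, was at 11.61, 11.87 and 12.15 in MPN mice and 10.45 in the control mouse. The largest differences of the list were those of Mmp8 (4.77), Chil3 (4.37) and Ly6g (4.31), and the smallest that of Gfi1 (0.45). Of 15 pan-leukocyte markers 14 were higher in every MPN mouse, against 46.8% of all genes. The summed level of the 15 was between 13.23 and 13.83 in MPN mice and 11.09 in the control mouse. Of 16 mesenchymal stroma markers 14 were at least 2-fold lower in every MPN mouse, against 5.78% of all genes. The summed level of the 16 was between 10.33 and 11.03 in MPN mice and 14.22 in the control mouse. The part of leukocytes, granulocyte precursors and stroma in the values of the mitosis genes was not tested.

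Other lineages showed smaller or uneven differences, to be read against the 46.8% of all genes that were higher and the 21.1% that were lower in every MPN mouse. The median differences of the B cell precursor (0.17), erythroid (0.25) and stem and progenitor (0.15) lists were near the 0.18 of all genes. Of 12 measured B cell precursor markers, 7 were higher in every MPN mouse and 0 lower, and their summed level was between 8.66 and 11.52 in MPN mice and 10.19 in the control mouse. Vpreb1, part of the precursor B cell receptor, was at 4.36, 11.26 and 4.80 in MPN mice and 9.64 in the control mouse. Igll1 was also above the control in mouse 2 alone, at 5.85, 6.28 and 5.62 in MPN mice and 6.16 in the control mouse. Not all of the list followed Vpreb1. With Vpreb1 counted, 6 of the 12 markers had their highest MPN value in mouse 1 and 6 in mouse 2. Rag1, a recombinase of B and T cell precursors, was at 5.93, 5.14 and 4.80 in MPN mice and 5.49 in the control mouse. Of 11 erythroid precursor markers, 3 were higher and 2 lower in every MPN mouse, with a summed level between 8.95 and 10.13 in MPN mice and 8.83 in the control mouse, and Klf1, an erythroid transcription factor, was at 5.03, 5.03 and 4.47 in MPN mice and 4.44 in the control mouse, under the background limit. Of 7 megakaryocyte markers 6 were higher in every MPN mouse, with a summed level between 8.70 and 9.83 in MPN mice and 8.07 in the control mouse. Of 9 stem and progenitor markers, 4 were higher and 2 lower in every MPN mouse. Their summed level was between 9.08 and 10.09 in MPN mice and 8.97 in the control mouse, and differences ran from -1.04 (Meis1) to 1.84 (Myb). Kit, the stem cell factor receptor, was at 5.58, 6.35 and 5.96 in MPN mice and 6.82 in the control mouse. Myb was at 7.48, 8.83 and 9.25 in MPN mice and 6.68 in the control mouse. Macrophage markers had a median difference of 0.28 over 11 genes and a summed level between 11.29 and 11.81 in MPN mice and 11.40 in the control mouse, but members differed widely in opposite directions. Lyz2, a lysozyme also made by granulocytes, was higher by 3.61 (SE 0.26), while Vcam1, an adhesion molecule also made by marrow stroma, differed by -3.74 (SE 1.06) and Mertk, a receptor for dying cells, by -2.25 (SE 0.15). These 3 were chosen after their values were seen. Endothelial markers had 0.40 over 9 genes and a summed level between 8.09 and 8.36 in MPN mice and 7.77 in the control mouse.

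**Figure D5:**
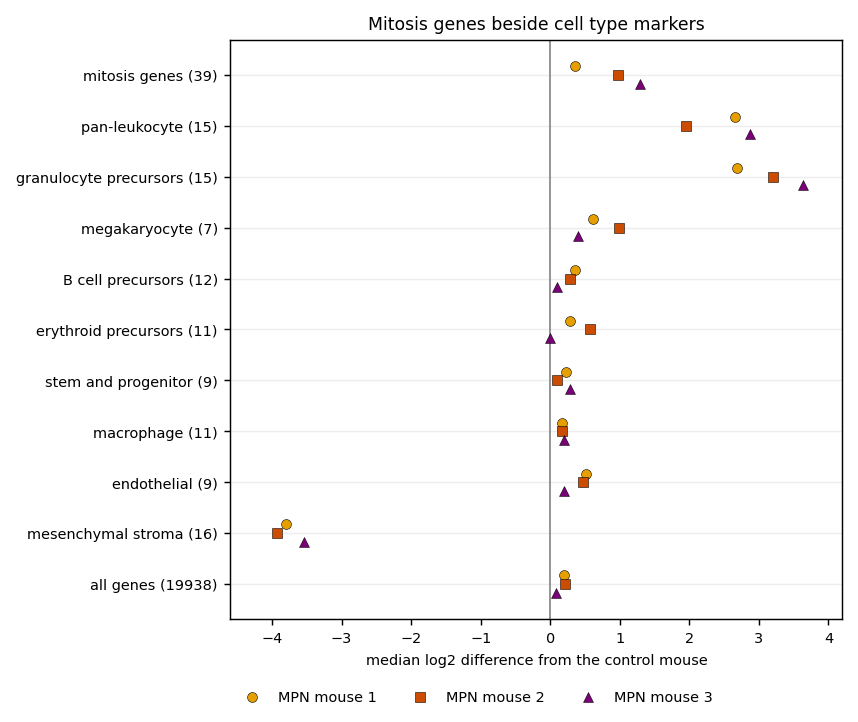
Median log2 difference from the control mouse (horizontal axis) of the mitosis genes, of 9 lists of cell type markers and of all genes, with the number of measured genes in brackets, for MPN mice 1 (circles), 2 (squares) and 3 (triangles). Granulocyte precursor markers lay 2.69 to 3.63 above the control and mesenchymal stroma markers 3.54 to 3.93 below it.

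The counts depended on the level to which the arrays were set. With the arrays shifted to one median of the receptor genes, the median difference was 0.53, against -0.078 for all genes, a step that moves all genes of an array alike and so leaves the gap between these medians nearly as it was. Then 14 of 39 genes were higher than the control in every MPN mouse, against 22.6% of all genes. At least 2-fold higher in every MPN mouse were 3 after that shift, against 0.767% of all genes, and 3 after cyclic loess, against 0.913%. Leaving out mouse 1 raised that count to 14, against 1.9% of all genes at least 2-fold higher in both remaining mice. Without mouse 3 the median difference was 0.49, against 0.221 for all genes.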

How the data were processed

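Sorted cells of 3 MPN mice and 1 control mouse were measured on Affymetrix mouse gene arrays after RNA amplification, per the design text. The deposited values run from 1.55 to 13.63 on a log2 scale, and per the submitters' processing notes the authors used RMA, the robust multi-array average. RMA corrects background, brings arrays to one distribution and combines probes, which compresses differences of dim genes. The sources used here give neither its version nor the probe set build. Arrays have no read depth, and their number limits the precision.

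Of 35556 probe sets, 21789 had 1 gene symbol in the platform table, 1621 several and 12146 none, and 21698 matched the RefSeq gene table by gene identifier. Each gene kept its probe set of highest mean over the 4 arrays, which left 19938 genes. The two-sided comparison used lmFit and eBayes of limma 3.58.1 (R 4.3.3). P-values were adjusted over all genes by Benjamini and Hochberg's method, with a threshold of 0.05 and 2 residual and 1.39 prior degrees of freedom. The single control mouse was taken to vary as MPN mice do, which nothing here tests. SE is that of the difference. The fit was tested on simulated data. The background limit, 5.21, was the 95th percentile of the means of 1194 receptor genes. A gene was called under it where both group means were. For 134 genes all MPN values were identical, and limma offset their zero variance. Within the MPN group the labels separate the samples only by the mouse number in the title. The p-values rest on the spread between the MPN arrays.

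The genes, lists and tests were chosen with earlier results of these data known. Values per array are given for mitosis genes with a mean difference or an SD over MPN arrays of at least 1. Of other lists, the genes with the largest differences are named (5 higher and 3 lower for other mitosis genes, 2 each for regulators). Defining markers are named for the leukocyte, granulocyte, B cell, erythroid, stem cell and stroma lists. Some further markers of the cell type lists were named after their values were seen. The remaining members are given by their difference. Alternatives were each MPN mouse left out, probe sets averaged, genes under background removed, quantile normalization repeated, cyclic loess, arrays shifted to one median of the receptor genes, an intensity trend in the prior, all probe sets tested and, for promoters, a shorter window.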

Additional observations from a re-analysis of the deposited data

How the results depend on the processing

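No mitosis gene and no other mitosis gene passed limma's threshold under any alternative run, although 97 genes in all did after cyclic loess and 153 after the receptor gene shift. The median difference of the mitosis genes ran from 0.49 without MPN mouse 3 to 1.08 without mouse 1. The count at least 2-fold higher in every MPN mouse was 6 to 14 with 1 MPN mouse left out. It was 5 with the probe sets of a gene averaged, 3 after cyclic loess and 3 after the receptor gene shift. The count higher in every MPN mouse was 24 to 30 with 1 mouse left out and 14 after the receptor gene shift, and after cyclic loess and that shift the median difference of all genes was lower (0.012 and -0.078) than as deposited (0.179). The shares of promoters with a motif kept within their intervals in the shorter window (100 bases before the start), where TTTGAA was in 74.3% of windows, against 8.01% of all.

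The sign of 9 genes changed under an alternative, most of them with small differences, though Nuf2 was at 0.91 as deposited. With the receptor gene shift Cdc25c was at -0.248, Kif2c at -0.104, Kif20b at -0.0888 and Ect2 at -0.00461. After cyclic loess Cdc25c was at -0.206 and Kif2c at -0.0436, and after repeated quantile normalization Cdc25c was at -0.0387. With 1 MPN mouse left out, differences ran from -0.408 to 0.917 for Bub1b, -0.476 to 0.871 for Mad2l1, -0.0944 to 1.95 for Nuf2, -0.0662 to 0.306 for Kif2c, -0.19 to 0.574 for Kif20b and -0.015 to 0.47 for Prc1, each below 0 without mouse 3. They ran from -0.211 to 0.123 for Cdc25c and -0.00826 to 0.442 for Ect2, below 0 without mouse 1, and from -0.753 to 0.288 for Cep55, above 0 without mouse 1 or mouse 2. No paired analysis was possible because there was 1 control mouse. With 1 control array, no value here measures how control mice vary, and 5 of the 39 genes lay under the background limit, where RMA compresses differences.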

Other observations

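Most regulators of the earlier cell cycle phases had higher values in MPN mice than in the control mouse. Their mean difference was above 0 in 25 and below 0 in 4, where 13251 of the 19938 genes were above 0. Of 29 genes of G1 and S phase, 20 were higher and 2 lower than the control in every MPN mouse, where 46.8% of all genes were higher and 21.1% lower, and the median difference was 0.72. With limma 0 passed the adjusted threshold, while 9 were higher and 2 lower at an unadjusted p under 0.05, against 3.97% and 8.63% of all genes. E2f8, an E2F repressor made in S phase, was at 8.10, 8.28 and 7.61 in MPN mice and 5.51 in the control mouse (2.48, SE 0.34, adjusted p = 0.146), and Rrm2, the small subunit of ribonucleotide reductase, differed by 1.93 (SE 0.20). Among the D-type cyclins of G1, Ccnd1 was at 5.77, 5.54 and 5.82 in MPN mice and 7.58 in the control mouse (-1.87, SE 0.20, adjusted p = 0.112), and Ccnd2 was at 6.06, 6.86 and 6.56 in MPN mice and 8.19 in the control mouse (-1.70, SE 0.39, adjusted p = 0.266), while Ccnd3 was at 7.38, 6.73 and 6.87 in MPN mice and 6.82 in the control mouse (0.18, SE 0.34). E2f8 and Rrm2 differed less between MPN mice than Cdk1 or Mki67, with an SD of 0.34 and 0.16, against 1.39 and 1.12. These 4 genes do not stand for their lists. Over whole lists the median SD was 0.41 for the G1 and S phase regulators and 0.68 for the mitosis genes. It was 1 or more in 4 of 29 and 14 of 39 genes.

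Of 11 measured cell cycle inhibitors, 4 were higher and 1 lower in every MPN mouse, no larger a share higher than the 46.8% of all genes, with a median difference of 0.35. Btg2, an antiproliferative gene, was at 10.04, 9.69 and 9.64 in MPN mice and 8.34 in the control mouse (1.45, SE 0.24, adjusted p = 0.182), and Cdkn2d, which encodes the Cdk inhibitor p19, differed by 0.62 (SE 0.30). The lowest were Rbl2, the pocket protein p130 of the DREAM complex, at 4.35, 5.22 and 5.40 in MPN mice and 5.93 in the control mouse (-0.94, SE 0.52), and Btg1 (-0.08, SE 0.35).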
